A study of Caenorhabditis elegans with 4 samples.

Results

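The LIN-13 binding regions on chromosome III of Caenorhabditis elegans were chosen as all rows of the deposited peak list that name chromosome III, which gave 570 of 5502 peaks, or 10.4% of the list. The list comes from chromatin immunoprecipitation sequencing (ChIP-seq) of embryos of the hermaphrodite strain OP51, grown at 20 °C and cross-linked with 2% formaldehyde. The worms carried the genotype unc-119 (ed3) III together with the transgene wgIs73, which holds lin-13 fused to TY1, EGFP and FLAG and a working copy of unc-119. ChIP DNA, recovered with a goat antibody against GFP, and input DNA, the same chromatin without precipitation, were each sequenced from 2 replicates. All 4 libraries share the strain, the stage and the transgene, so input DNA is the only control, and no untagged strain is among the groups. The genotype names no change in the native lin-13 gene, and the copy number of the transgene and its place of insertion were not given in the sources used here. Both replicates were combined by the authors into 1 list of binding regions, which leaves no replicate error for any value. A peak list of DNA holds no marker by which the labelled embryonic stage could be checked.

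LIN-13 is a nuclear protein with many zinc fingers that belongs to the class B synthetic multivulva group of genes. Proteins of this group, among them the Rb homologue LIN-35 and the heterochromatin protein HPL-2, keep vulval, germline and other developmental genes silent in cells where they should be off, and LIN-13 is known to bring HPL-2 to chromatin. Worm chromosomes have no single centromere. They are organised into a gene-dense centre with little recombination and 2 arms that are rich in repeats, recombine more and carry most of the methylation of histone H3 at lysine 9, the mark that HPL-2 binds. The lin-13 gene and unc-119 both have their native place on chromosome III, and reads from a transgene would align to those places. Which peaks lie over these 2 genes was not analysed here, because no genome or annotation of the build of the list was used.

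Positions are those of WormBase WS180. The chromosome was taken to run from base 1 to the end of its last peak at 13771416. Following the rule for the regions, a peak belongs to the left arm when its midpoint lies below 3722000, to the centre from there to below 10340000 and to the right arm from 10340000 on. The q-value of a peak, as deposited, is the false discovery rate at which it enters the list, and the strongest peaks are those with the smallest q-values. At the left border the nearest peaks were 3701611 to 3701903, on the arm side, with a q-value of 0.00315, and 3735091 to 3735396, on the centre side, with 0.00119. At the right border they were 10333891 to 10334222, in the centre, with a q-value of 3.53e-09, and 10407162 to 10407556, on the arm, with 3.76e-10. None of these 4 peaks overlaps a border, so no peak was cut by the division.

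LIN-13 peaks were densest on the left arm and sparsest in the centre. The left arm held 229 peaks, or 61.5 per Mb (exact Poisson 95% interval 53.8 to 70.03). The centre held 203 peaks on 6.62 Mb, or 30.7 per Mb (26.6 to 35.2), and the right arm held 138 peaks, or 40.2 per Mb (33.8 to 47.5). The density in the centre was 0.598 times that of both arms together (exact 95% interval 0.501 to 0.712). It was 0.499 times that of the left arm (0.411 to 0.605) and 0.763 times that of the right arm (0.611 to 0.954). These intervals cover counting error only and treat each peak as separate, although peaks were grouped, so they are too narrow. Measured as covered sequence, peaks took up 2.15% of the left arm, 1.17% of the centre and 1.71% of the right arm.

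Most of the excess of the left arm over the right lay in a single megabase. The left arm was 1.53 times as dense as the right arm (1.23 to 1.90). The second megabase of the chromosome, from 1000001 to 2000000, alone held 115 of the left arm's 229 peaks and 20.2% of those on III (Clopper-Pearson 95% interval 17.0 to 23.7). Without that megabase the left arm had 41.9 peaks per Mb (34.5 to 50.3), and its ratio to the right arm was 1.04 (0.805 to 1.34). The ratio of the centre to both arms was then 0.749 (0.620 to 0.905). The second megabase was singled out with earlier results of these data known, so its excess is a description.

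**Figure D1:**
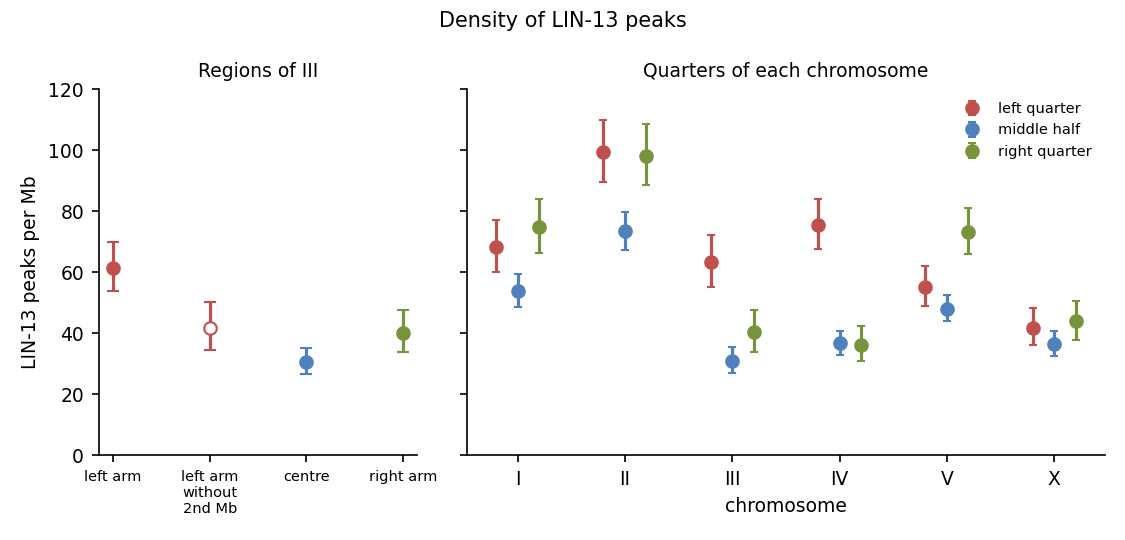
Density of LIN-13 peaks in peaks per Mb, with exact Poisson 95% intervals as bars. The left panel gives the 3 regions of III, with the open point for the left arm without its second megabase (41.9 per Mb), which sits beside the right arm (40.2) and above the centre (30.7). The right panel divides each of the 6 chromosomes into a middle part and 2 equal outer parts that together are as long as the middle, and the middle of III is the lowest of its 3 points, at 30.9 per Mb.

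Set beside the other chromosomes, III had the lowest ratio of centre to arms, and its arms were unequal. Each chromosome was divided in the same way into a middle part and 2 equal outer parts that together are as long as the middle. The middle of III had 0.597 times the density of its outer parts (0.501 to 0.709). The same ratio was 0.657 on IV (0.569 to 0.758) and lay between 0.743 and 0.850 on I, II, V and X. The left outer part of III held 1.57 times as many peaks as the right one (1.26 to 1.95), against 2.08 times on IV (1.72 to 2.53). The other 4 chromosomes lay between 0.754 on V and 1.01 on II. III therefore lay beside IV in both respects, the intervals of III and IV overlapped, and the differences between chromosomes were not tested. Both values of III depended on its second megabase. Without it, and with the region borders of the rule, they were 0.749 and 1.04. The other chromosomes were not recomputed without their fullest window.

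Peaks were thin over most of III and crowded in 1 place. The other 12 full windows of 1 Mb held between 20 and 53 peaks, with a median of 37.5, against 115 in the second. The lowest counts were in the centre, with 20 peaks from 6000001 to 7000000 and 22 from 7000001 to 8000000. The next highest count, 53, was in the window that follows the second megabase. Covered sequence was also highest there, at 38.1 kb in the second megabase and 4.74 to 19.1 kb in the 12 others. The fullest 1 Mb window of each other chromosome held between 7.99% (on X) and 10.9% (on II) of that chromosome's peaks, against 20.2% on III. III had the fewest peaks of all chromosomes, at 570, which raises such a share. In number of peaks, the fullest windows of II (143) and V (124) exceeded the 115 of III, and those of I (86), IV (82) and X (56) did not.

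**Figure D2:**
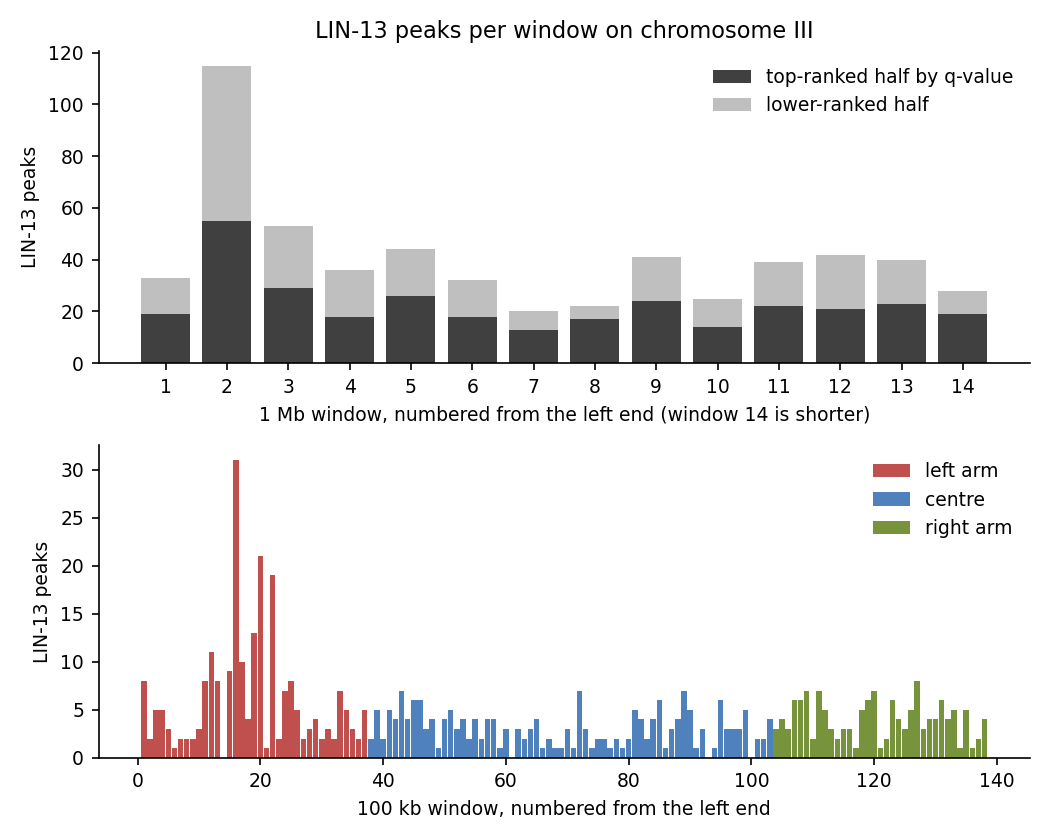
Number of LIN-13 peaks per window of chromosome III, with windows numbered from the left end. The upper panel uses 1 Mb windows and splits each bar into top-ranked peaks (the 2751 peaks of the whole list with the smallest q-values) and lower-ranked peaks, and the second window reaches 115 peaks. The lower panel uses 100 kb windows coloured by region, with a highest bar of 31 peaks in the left arm, and no bar above 7 in the centre or above 8 in the right arm.

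At a finer scale the crowded stretch was broken into blocks. Of 138 windows of 100 kb, 6 held 10 or more peaks, and all 6 lay on the left arm between 1100001 and 2200000. The window from 1500001 to 1600000 held 31 peaks, that from 1900001 to 2000000 held 21, and that from 2100001 to 2200000 held 19. The windows from 1800001, 1100001 and 1600001 followed with 13, 11 and 10 peaks. The windows between these blocks were uneven. Those from 1200001, 1400001 and 1700001 held 8, 9 and 4 peaks, against a median of 3 over all 138 windows. The window from 1300001 to 1400000 held no peak at all, and the window from 2000001 to 2100000 held 1. From the end of the bare stretch at 1413757 up to 2200000, 108 peaks lay on 0.786 Mb, or 137 per Mb, and this stretch held 18.9% of the peaks of III.

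The densest window of 100 kb held many small, closely spaced peaks. Its 31 peaks ran from 1502340 to 1591939, with widths of 4 to 1399 bp and a median of 208 bp. The median gap between them was 1747 bp, and the gaps ranged from 236 to 11206 bp. Of the 31 peaks, 22 had another midpoint within 2 kb. Top-ranked peaks, the 2751 of the whole list with the smallest q-values, numbered 15 among the 31. The strongest of them was also the widest, from 1506147 to 1507545, with a q-value of 6.86e-28. The block from 1900001 to 2000000 differed in form. The 21 peaks there were wider, at a median of 391 bp, and 3 of them measured 1 kb or more. They covered 11.8 kb, more than the 8.995 kb of the block with 31 peaks.

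Taken as a whole, peaks of the second megabase were narrower than those elsewhere on III. Their median width was 222 bp (exact 95% interval of the median 201 to 270), against 320 bp (310 to 333) for the remaining 455 peaks. The rest of the left arm had a median of 318.5 bp (288 to 354), close to the 319 bp of the centre (303 to 341) and the 321.5 bp of the right arm (308 to 367). Of the 115 peaks, 12 (10.4%) were narrower than 100 bp, against 8.91% of the whole list, and 5 (4.35%) were 1 kb or wider, against 2.69%. Top-ranked peaks made up 47.8% (38.4 to 57.3) of the second megabase. They made up 60.6% (53.5 to 67.4) of the centre, 57.2% (48.5 to 65.6) of the right arm and 50.7% (44.0 to 57.3) of the left arm.

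The strongest sites were not left out of the crowded stretch. On III 34 peaks had q-values under 1e-20, or 5.96% (4.17 to 8.24), against 4.33% of the whole list. Of these 34, 10 lay in the second megabase (8.70% of its peaks), 12 in the centre (5.91%) and 10 on the right arm (7.25%). The rest of the left arm held 2, the lowest share, at 1.75% (0.213 to 6.19), with an interval that overlapped those of the others. Under 1e-10 there were 91 peaks on III, or 16.0%, against 13.9% of the list. Their shares were 15.7% in the second megabase, 13.2% on the rest of the left arm, 17.2% in the centre and 16.7% on the right arm. The intervals of the shares under 1e-10 overlapped widely. Under 1e-20 the interval of the second megabase, 4.25 to 15.4%, overlapped that of the rest of the left arm only in part. Both shares on III lay close to those of the list.

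In spacing the left arm stood apart from the rest of III. The median gap between neighbouring peaks was 5407 bp on the left arm (exact 95% interval 3977 to 7413), 20776 bp in the centre (15968 to 26792) and 17288 bp on the right arm (12667 to 21072), and the last 2 intervals overlapped. Over the whole of III it was 12667 bp, longer than on every other chromosome but X, whose median gap was 15473 bp. Gaps under 1 kb were found 39 times on the left arm, 5 times in the centre and 9 times on the right arm. Without the second megabase the median gap of the left arm was 11837 bp, still shorter than in the other 2 regions. No gap was shorter than 210 bp.

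**Figure D3:**
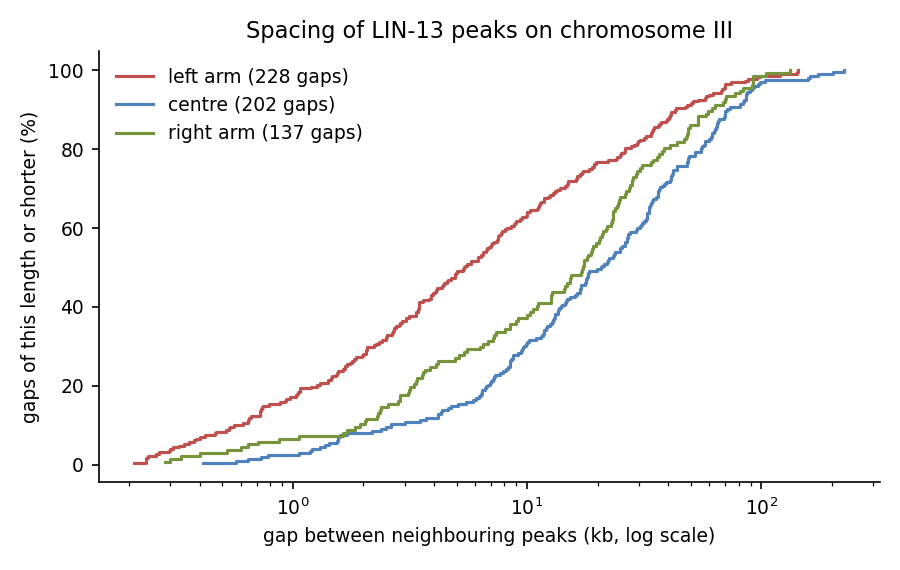
Cumulative share of gaps between neighbouring LIN-13 peaks (percent, vertical axis) by gap length in kb (log scale, horizontal axis) for the 3 regions of III. The curve of the left arm lies to the left of the others over most of its range, with a median of 5.41 kb against 17.3 kb on the right arm and 20.8 kb in the centre.

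Stretches of 100 kb or more without a peak were found in all 3 regions, and the 5 longest lay in the centre. Of the 569 gaps, 11 were 100 kb or longer, and together they took up 1.67 Mb, or 12.1% of the spanned length. The centre held 6 of them on 6.62 Mb, the left arm 3 on 3.72 Mb and the right arm 2 on 3.43 Mb, so their number was close to each region's share of the length. Gaps of 100 kb or longer numbered 5 on I, 4 on II, 20 on IV, 24 on V and 23 on X, chromosomes of different length. The longest gaps of IV and V, of 333 and 322 kb, exceeded that of III. On III the longest stretch without a peak ran for 226 kb, from 9868331 to 10094461. It was bounded on the left by a peak of 200 bp with a q-value of 5.74e-05 and on the right by one of 372 bp with 9.54e-04. The second longest, of 202 kb, lay less than 0.5 Mb away from 9191430 to 9393275, between peaks with q-values of 0.00436 and 6.17e-05. The window from 9000001 to 10000000, which holds all of this stretch and the beginning of the longest one, had 25 peaks.

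The next 3 empty stretches also lay in the centre. They ran from 5958416 to 6133370 (175 kb), from 7336396 to 7498376 (162 kb) and from 6710289 to 6869363 (159 kb). Their flanking peaks had q-values of 0.00872 and 4.10e-05, of 1.19e-04 and 2.78e-19, and of 2.72e-04 and 0.00753. Of the 10 peaks that flank the 5 longest gaps, 1 had a q-value under 1e-10, against 16.0% of all peaks on III and 13.9% of the list. It lay at 7498377 to 7498678, with a width of 302 bp. The longest gap of the left arm, 144 kb from 1269544 to 1413756, fell inside the crowded second megabase. It was bounded by peaks of only 29 and 7 bp, with q-values of 2.07e-04 and 0.00123. Such a stretch is one where no region entered the list, whose q-values all lie under 0.01, and binding below that limit would not be seen.

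Close neighbours were concentrated on the left arm. On III 135 peaks, or 23.7% (20.3 to 27.4), had another midpoint within 2 kb, against 32.8% of the whole list. The share was 37.6% on the left arm (31.3 to 44.2), 14.8% in the centre (10.2 to 20.4) and 13.8% on the right arm (8.50 to 20.7). In the second megabase it was 53.9% (44.4 to 63.2), and over the rest of III 16.0% (12.8 to 19.7). A higher density by itself brings midpoints nearer, and these shares were not adjusted for it.

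Linking midpoints within 2 kb joined these 135 peaks into 55 groups. Pairs made up 43 of the groups, and 12 groups held 3 or more peaks. Of these 12, 11 lay on the left arm, 1 on the right arm and 0 in the centre. All 11 groups of the left arm lay between 1183609 and 2152146, and 9 of them lay in the second megabase. The only such group outside this stretch, on the right arm from 12366976 to 12370226, held 3 peaks, one of them 1627 bp wide.

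The largest group, singled out after its size was seen, held 8 peaks from 1526522 to 1534676. Its peaks were short, at 116 to 322 bp, and covered only 23.1% of the 8.16 kb they spanned. The smallest q-value among them was 8.59e-09, at 1533142 to 1533398. The next group, of 6 peaks from 2146365 to 2152146, was more closely packed, with 50.3% of its 5.78 kb covered. Another, of 5 peaks from 1927288 to 1934119, contained a peak of 1783 bp with a q-value of 6.12e-23, beside companions of 108 to 654 bp. A still wider peak, 1925025 to 1927050 (2026 bp), ended 237 bp before that group and was left out because its midpoint lay more than 2 kb away. As linked by midpoints, large groups took different forms, from short peaks of modest strength to a wide peak with smaller companions.

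Few of the strongest sites on III had another midpoint within 2 kb. Top-ranked peaks made up 47.4% of the 135 peaks with a neighbour within 2 kb (38.8 to 56.2) and 58.4% of the 435 others (53.6 to 63.1). Of the 34 peaks with a q-value under 1e-20, 31 had no other midpoint within 2 kb (91.2%), against 76.3% of all peaks on III. Midpoint distance can count a wide peak as alone although its edge lies near another, and strong peaks were wider. Among the 31, the peak at 1925025 ended 237 bp before the next one and that at 12612274 ended 300 bp before the next. Median widths were 285 bp with a neighbour (256 to 320) and 319 bp without (307 to 332). The intervals of both the shares and the widths overlapped, and these differences were not tested. The strength of a peak showed little relation to that of its neighbour. Spearman's rho between the −log10 q-values of adjacent peaks was -0.11 over the 80 pairs within 2 kb and 0.04 over the 489 pairs farther apart, a description without a test over peaks that share the same libraries.

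The median width of a peak on III was 314 bp (302 to 323), with quartiles of 227 and 461 bp and a range of 1 to 2182 bp. The medians of the other chromosomes ran from 263 bp on II to 374 bp on X. There were 34 peaks narrower than 100 bp, or 5.96%, against 8.91% of the list. The left arm held 21 of them, or 9.17% of its peaks (5.77 to 13.7), close to the share of the list. The centre held 8, or 3.94% (1.72 to 7.62), and the right arm 5, or 3.62% (1.19 to 8.25). Only 3 of the 34 were top-ranked, and the smallest q-value among them was 4.56e-06. A width of a few bases is far below the length of a ChIP fragment, so it describes where the caller's threshold was crossed and not a footprint of the protein.

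Wide peaks were few and spread over all 3 regions. There were 18 peaks of 1 kb or wider, or 3.16% (1.88 to 4.95), against 2.69% of the list, with 7 on the left arm, 5 in the centre and 6 on the right arm. Of the 18, 17 were top-ranked and 14 had a q-value under 1e-10. The widest, from 12614104 to 12616285 on the right arm, measured 2182 bp with a q-value of 1.45e-12. The second, from 11935086 to 11937112, measured 2027 bp but had a q-value of only 3.06e-08. The third and the fourth, from 1925025 to 1927050 and from 1927288 to 1929070, were neighbours separated by 237 bp, and together they formed the broadest block of the second megabase, with q-values of 6.01e-22 and 6.12e-23. The fifth, from 5939538 to 5941178 in the centre, measured 1641 bp with a q-value of 4.57e-04 and was the only one of the 18 wide peaks that was not top-ranked.

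The strongest sites on III were wider than most peaks but not the widest. The 10 peaks with the smallest q-values had widths of 338 to 930 bp, with a median of 510 bp against 314 bp for all 570 peaks, and none reached 1 kb or had another midpoint within 2 kb. Among the 34 peaks with q-values under 1e-20 the median width was 496.5 bp, and 7 of them measured 1 kb or more. The first, from 3867377 to 3867750 near the left border of the centre, had a q-value of 2.77e-72 with a width of only 374 bp, and 6 was its rank among all 5502 peaks. The second, from 10758917 to 10759400 on the right arm, followed with a q-value of 4.21e-60 and rank 14. The third, from 7854442 to 7854779 in the centre, had 3.08e-46 and stood alone, with its nearest neighbour 83.5 kb away.

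Both of the left arm's entries among the 10 lay in the crowded stretch. The peak from 1618810 to 1619320 had a q-value of 2.07e-44 and that from 1859557 to 1859922 one of 7.10e-41. The third of that arm was the wide peak at 1506147, with 6.86e-28. The right arm added 13070306 to 13071102 with 3.61e-40, 12904755 to 12905263 with 2.47e-38 and 12608090 to 12608872 with 9.27e-33. The centre added 4475445 to 4475993 with 4.37e-36 and 4281693 to 4282622 with 1.92e-35. In all, the left arm held 2 of the 10, the centre 4 and the right arm 4. The last 2 of the 5 strongest in the second megabase were 1080588 to 1081068, with 2.11e-26, and 1142811 to 1143150, with 6.09e-24.

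Every megabase of III had at least 1 well-supported site, but their strength varied over many orders of magnitude. The strongest peak of a 1 Mb window had its largest q-value, 4.76e-12, in the first window, at 349323 to 350474. The next largest, 1.30e-13 at 6971884 to 6972213, was in the window from 6000001, which held the fewest peaks of any full window. The window from 11000001 came after it with 8.92e-16 at 11141631 to 11142362. The leaders of the remaining windows not yet named were 2785842 to 2786324 with 2.59e-27, 5018089 to 5018458 with 7.40e-32, 8043737 to 8044087 with 4.47e-32 and 9765319 to 9765898 with 1.43e-26. The window with the most peaks did not hold the strongest one, which was in the fourth window with its 36 peaks.

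Width and q-value were related, but less closely in the centre. Spearman's rho between width and −log10 q-value was 0.51 across the 570 peaks of III, 0.64 on the left arm, 0.35 in the centre, 0.44 on the right arm and 0.70 in the second megabase. These are descriptions across peaks, which share libraries and depth. The q-value depends on read numbers, and wider peaks held more implied reads, as given below. Part of the relation is therefore built in.

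**Figure D4:**
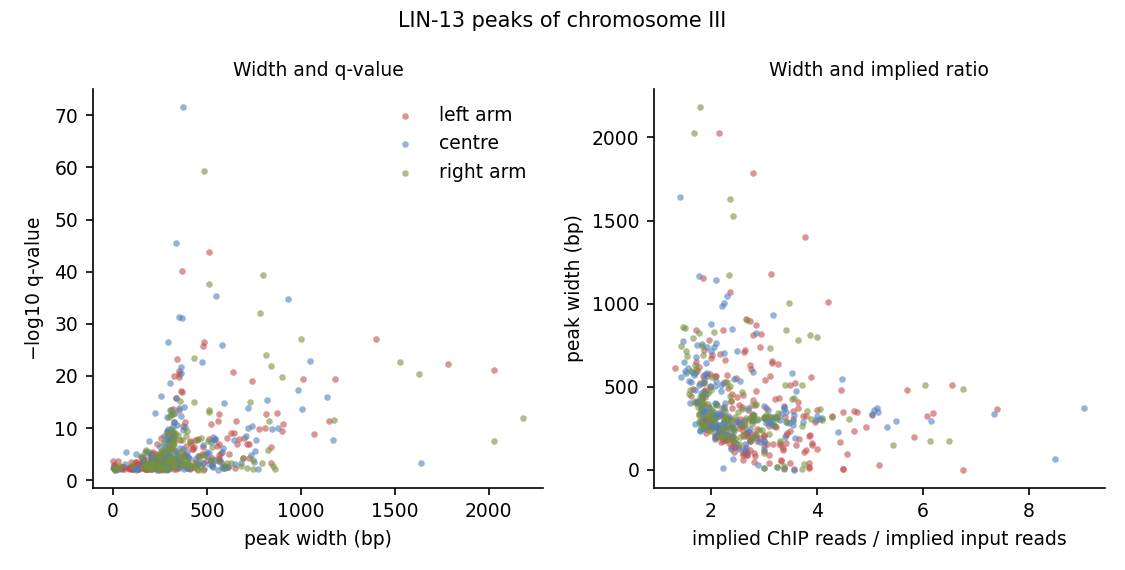
Each point is 1 of the 570 LIN-13 peaks of III, coloured by region. The left panel sets −log10 q-value against width in bp, and the peak with the smallest q-value (2.77e-72) is only 374 bp wide. The right panel sets width in bp against the ratio of implied ChIP reads to implied input reads, and all peaks with a ratio of 5 or more are 511 bp wide or narrower.

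The read numbers behind each peak are not in the list, but the q-values imply them. When the q-value of a row was multiplied by the row's number in the deposited order, the product equalled 26301 times the lower tail of a fair binomial distribution over whole numbers, within 1e-11 on the natural log scale. This held for all 5502 rows, and for 0 rows when 26301 was changed by 1 in either direction. A single pair of whole numbers resulted for each of the 570 peaks of III. The larger is read here as ChIP reads and the smaller as input reads after the caller's own scaling, an assumption that the list does not state, with an input count that could differ by 1 from the true one. On this reading the peaks of III rested on 63351 ChIP reads and 25909 scaled input reads, with a median of 93 against 37 per peak. How the input was scaled was not given in the sources used here, and a ratio is therefore no absolute enrichment.

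The implied ratio of ChIP to input was moderate at most sites. Its median was 2.44, with quartiles of 2.00 and 3.11 and a range of 1.32 to 9.04. The medians of the other chromosomes ran from 2.31 on X to 2.85 on II, and only that of X was lower than that of III. A ratio of 5 or more was found at 24 of the 570 peaks. These were 9 of 229 on the left arm, 10 of 203 in the centre and 5 of 138 on the right arm. Such peaks numbered 49 of 939 on I, 122 of 1314 on II, 55 of 807 on IV, 90 of 1171 on V and 13 of 701 on X. A ratio under 2 was found at 131 peaks, or 23.0% of those on III. The same share was 26.4% on X, 16.6% on IV, 13.8% on I, 11.5% on V and 6.47% on II. The highest ratio on III belonged to the peak with the smallest q-value, at 3867377, with 416 ChIP reads against 46 input reads. Among peaks with at least 100 reads in all, the next were 1859557 with 259 against 35 reads (ratio 7.40), 7854442 with 294 against 40 (7.35), 10758917 with 399 against 59 (6.76) and 1618810 with 301 against 46 (6.54). These 5 peaks were also the 5 with the smallest q-values on III. The ratio was derived from the q-value, so this agreement is partly built in.

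The 18 peaks of 1 kb or wider had a median ratio of 2.33, close to the 2.44 of all peaks on III, and the 5 widest had ratios from 1.42 to 2.79. The widest, at 12614104, had 449 ChIP reads against 251 input reads, a ratio of 1.79, and the second, at 11935086, had 337 against 199, a ratio of 1.69. The pair in the second megabase had 505 against 234 reads at 1925025 (2.16) and 338 against 121 at 1927288 (2.79). The wide peak of the centre at 5939538 had 296 against 208 reads, a ratio of 1.42. Across the 570 peaks, width and total reads had a Spearman's rho of 0.91, and width and the ratio one of -0.33. The limit on the q-value bears on the latter, because at low read numbers only high ratios pass it.

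Over all peaks, the left arm had the highest median implied ratio and the lowest median implied input of the 3 regions. The median ratio was 2.67 on the left arm (2.58 to 2.77), 2.25 in the centre (2.16 to 2.37) and 2.42 on the right arm (2.32 to 2.60). The second megabase had 2.75 (2.62 to 2.93). For read densities, 200 bp were added to the width of each peak. The median of input reads per kb was 55.4 on the left arm (52.1 to 59.1), 80.2 in the centre (77.9 to 86.5) and 74.5 on the right arm (65.3 to 79.8), and it was 50.5 in the second megabase (47.5 to 54.0). ChIP reads per kb were also lowest there, with a median of 135 in the second megabase, 138 on the left arm, 193 in the centre and 171 on the right arm. So over all peaks the higher median ratio of the left arm went with less input per kb and not with more ChIP reads per kb. Reads per kb also differed by total reads. Median input per kb on the left and right arm was 34.4 and 34.4 for peaks with up to 59 reads. It was 51.8 and 51.0 with 60 to 99 reads, 63.1 and 72.1 with 100 to 159, and 75.3 and 95.2 with 160 or more. In the centre it was 40.2, 57.3, 75.5 and 104 in the same order.

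Total reads differed between the regions, and the ratio depends on them. The median total was 103 reads on the left arm, 153 in the centre and 142.5 on the right arm. Among peaks with 160 or more reads, the median ratio was 2.72 for 58 peaks of the left arm, 2.09 for 93 of the centre and 2.32 for 57 of the right arm. Among peaks with 100 to 159 reads, the medians were 2.32, 2.26 and 2.32 in the same order. With 60 to 99 reads they were 2.54, 2.40 and 2.46, and with up to 59 reads 3.35, 3.00 and 3.54, the last from only 46, 12 and 10 peaks. The centre had the lowest median in each of the 4 classes, whereas the order of the arms varied, and in every class the medians differed by less than the distance between the quartiles within a region. Among the 22 peaks of the second megabase with 160 or more reads the median was 2.87, with quartiles of 2.43 and 4.46. Widths also differed by read class, and the median total was 82 reads in the second megabase and 143 on the rest of III. With 160 or more reads, median widths were 657.5 bp in the second megabase, 481 bp in the centre and 510 bp on the right arm. With 100 to 159 reads they were 385.5, 294 and 307 bp in the same order. With 60 to 99 reads they were 202, 235 and 210.5 bp, and with up to 59 reads 108, 90 and 69 bp.

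**Figure D5:**
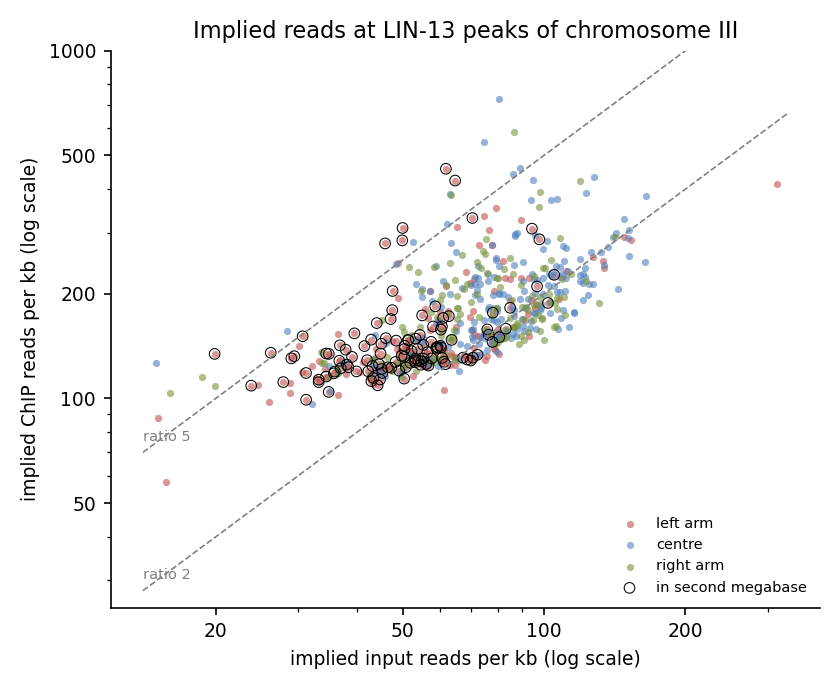
Implied ChIP reads per kb against implied input reads per kb (both log scale) for the 570 LIN-13 peaks of III, coloured by region, with black rings for the 115 peaks of the second megabase and dashed lines at ratios of 2 and 5. The ringed peaks lie mostly at the lower left, with medians of 50.5 input and 135 ChIP reads per kb, and 1 peak of the left arm lies far to the right at 313 input reads per kb.

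Sites with the most input lay mainly in the centre. Of the 57 peaks with the most implied input reads per kb, 41 lay in the centre, which held 203 of all 570 peaks. A further 7 lay on the left arm, with its 229 peaks, and 9 on the right arm, with its 138. None of the 57 lay in the second megabase. Their median ratio was 1.91. Input is also the lower term of the ratio, so picking peaks by input favours low ratios, here and at the sites named next. The single highest value, 313 input reads per kb, was at 931224 to 931837 on the left arm, with 336 ChIP reads against 255 input reads, a ratio of 1.32 and a q-value of 0.00311. It was 1.90 times the next value, 165 per kb at 8416911 to 8417958, where 476 ChIP reads met 206 input reads. The third to the fifth were 6279978 to 6280624 (164 per kb), 349323 to 350474 (153 per kb) and 3801201 to 3801917 (152 per kb). At 4 of these 5 sites the ratio was about 2 or lower, the exception being 8416911 with 2.31 and a q-value of 1.23e-23.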

How the data were processed

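The deposited file was 1 peak list in GFF3 format on WormBase WS180, per the file headers, with PeakSeq named as its source. The authors combined 2 ChIP and 2 input libraries before depositing it. The version of PeakSeq, the aligner and the scaling of input were not given in the sources used here. Column 6 holds the deposited q-value of each peak (all under 0.01), and coordinates are 1-based. Depth per library is unknown from the list.

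The members, regions and comparisons were chosen with earlier results of these data known. Densities carry exact Poisson intervals, ratios exact conditional binomial intervals, shares Clopper-Pearson intervals and medians exact order-statistic intervals, all at 95% and for counting error only. No p-value was computed, since 1 combined list allows no test over samples. Peaks named are the 10 strongest on III, the 3 strongest per region, the 5 widest, the flanks of the 5 longest gaps, the 5 strongest of the second megabase, the strongest per 1 Mb window, and the 5 with the highest implied ratio and the most implied input per kb. Others were named after their values were seen. Reads were recovered by searching whole-number pairs for each q-value, and the code was tested on simulated data. Python 3.11.15, numpy 2.4.6, pandas 2.3.3 and scipy 1.17.1 were used.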

Additional observations from a re-analysis of the deposited data

How the results depend on the processing

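The ratio of centre to arm density stayed below 1 and that of left to right arm above 1 under every alternative tried. Without the second megabase they were 0.749 and 1.04, outside the intervals of the values as reported (0.598 and 1.53), and the interval of the second then included 1. The share of peaks in the second megabase was 8.07% with the window shifted 0.5 Mb to the left and 20.4% with a shift to the right. With only the top-ranked peaks, the median width was 387 bp on the left arm, 332 bp in the centre and 357 bp on the right arm. The left arm thus had the widest peaks of the 3 regions under this setting, although it had the narrowest among all peaks. Median gaps were then 14973 bp on the left arm, 37974 bp in the centre and 26338 bp on the right arm, longer since fewer peaks remain. Without the second megabase the left arm's median gap was 11837 bp. With at least 100 reads the median implied ratio was 2.49 on the left arm and 2.15 in the centre, and with input raised by 1 read it was 2.56 on the left arm. The share with a close neighbour was 8.95% within 1 kb, 46.5% within 5 kb, 10.4% among top-ranked peaks, 17.8% after merging peaks closer than 500 bp and 16.0% without the second megabase. Of 49 alternative values, 33 lay inside the interval of the value as reported. Alternatives that leave out the second megabase for width, gap, neighbours and implied ratio were chosen after seeing the data. No paired analysis was possible because the list has no columns for single replicates, and no replicate could be left out for the same reason. The comparison of peaks with genes was not run.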
